A study of Mus musculus with 16 samples.

Results

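The urea cycle and ammonia handling genes of the mouse liver are described here across 4 diets. The set was chosen by gene name, with earlier results of these data known. It holds 10 genes of the 54752 in the deposited count table, and all 10 were counted deeply enough in every liver to be tested. The liver removes ammonia set free when amino acids are broken down. In the mitochondria of hepatocytes, carbamoyl-phosphate synthetase (Cps1) joins ammonia to bicarbonate, and it works only in the presence of N-acetylglutamate, the product of Nags. Ornithine transcarbamylase (Otc) makes citrulline from carbamoyl phosphate and ornithine, and in the cytosol argininosuccinate synthase (Ass1), argininosuccinate lyase (Asl) and arginase (Arg1) complete the cycle and release urea. The carriers Slc25a15 (ornithine against citrulline) and Slc25a13 (glutamate against aspartate) link both compartments, while liver glutaminase (Gls2) and glutamate dehydrogenase (Glud1) set ammonia free from glutamine and glutamate. Expression of most urea cycle enzymes in the liver is highest around the portal vein, and their amounts are known to follow protein intake and the hormones glucagon and glucocorticoid.

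RNA was sequenced from snap-frozen livers of 16 male mice aged 11 weeks, 4 per diet. All carried the Ercc1 d/- genotype (a truncated allele over a null allele of a DNA repair endonuclease subunit, which gives premature ageing) on the F1 Hybrid C57BL6J/FVBN background, so every group, controls included, was repair-deficient and no repair-proficient liver was analysed here. Control animals stayed on AIN93G, the purified diet on which all of them had been raised, and the others changed diet at 8 weeks of age. The high-protein diet was labelled as 194% protein and 70% carbohydrate, the low-protein diet as 70% protein and 112% carbohydrate, and the low-fat diet as 70% fat and 112% carbohydrate, with energy content matched and food given freely.

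Library totals lay between 35243594 and 46051218 counts on the control diet, 37317405 and 46899907 on the high-protein diet, 36662347 and 43404769 on the low-protein diet, and 36871852 and 112789127 on the low-fat diet. The 10 hepatocyte markers summed to between 74312 and 137440 CPM (the usual depth-scaled counts, here with scaled library sizes), and none was at 0 in any library. Control 4 stood apart: its SD over genes from the other controls was 1.29 log2 units, against 0.73 to 1.01 for the other 3 controls and 0.43 to 0.83 in the other diets, and its scaling factor was 0.778. Transcripts of 17 kidney markers were present in the liver libraries, with sums of 81.3 to 3886 CPM in the controls, of 0.404 to 1312 CPM in high-protein livers, of 568 to 1098 CPM in low-protein livers and of 869 to 2452 CPM in low-fat livers. Control 3 had the highest kidney sum and high-protein 1 the lowest, with 14 of the 17 markers at 0 there, among them Umod, Slc12a1, Kap and Slc34a1. Of the small intestine markers, Sis and Alpi were at 0 in all 16 libraries. Counts for the 10 genes in each comparison of diets are therefore also given without control 4, and without control 3, control 4 and high-protein 1 together. The latter fit keeps only controls 1 and 2 on the control diet and livers 2 to 4 on the high-protein diet.

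Ass1 was the most abundant of the 10 transcripts per length. Its mean over the 16 livers was 1515 CPM per kb of exon, followed by Cps1 (875), Arg1 (579), Glud1 (281), Asl (159), Gls2 (130), Otc (98.0), Slc25a15 (92.1), Slc25a13 (47.0) and Nags (22.3). Together the 10 genes took between 0.983% and 2.39% of all counts in a library. Their counts ran from 1612 for Nags in 1 library to 446752 for Cps1, so the Poisson counting error was at most 2.49% of a value. The spread of a gene over the 16 livers differed widely. Asl had a 10.5-fold range between the lowest and the highest liver, Ass1 5.21-fold and Arg1 4.79-fold, while Glud1 had a 1.52-fold range and Slc25a13 one little wider. Control 4 was the highest liver for the first 3, and without it the ranges were 4.39-fold for Asl, 3.08-fold for Ass1 and 2.83-fold for Arg1.

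RefSeq promoter windows (GRCm38.p6) were matched for 6 of the 10 genes. Of these, 4 are printed, the 250 bases before the RefSeq start, because they set Slc25a13, which had the smallest p over the diets, and Slc25a15 and Ass1, whose levels ran with Cps1 across livers, beside Otc, whose level did not. Capitals mark matches to the motifs searched on both strands. These were the cyclic AMP response element TGACGTCA and its core TGACG, the C/EBP motif TTGCNNAA, the TATA box TATAAA, the GC box GGGCGG and the glucocorticoid motif AGAACA. The core lies within each full element. The Ass1 window is cut to 187 bases because the rest lies inside the annotated gene, and the RefSeq start of Slc25a15 differs from that of the gene model counted. The windows are chr6:6217174-6217423 (minus strand) for Slc25a13, chr8:22398622-22398871 (minus strand) for Slc25a15, chr2:31470020-31470206 (plus strand) for Ass1 and chrX:10252055-10252304 (plus strand) for Otc.
Slc25a13: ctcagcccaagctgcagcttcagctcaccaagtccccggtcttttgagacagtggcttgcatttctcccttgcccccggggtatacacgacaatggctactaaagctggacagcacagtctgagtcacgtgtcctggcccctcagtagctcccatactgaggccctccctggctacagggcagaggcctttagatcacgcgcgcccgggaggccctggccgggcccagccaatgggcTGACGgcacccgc
Slc25a15: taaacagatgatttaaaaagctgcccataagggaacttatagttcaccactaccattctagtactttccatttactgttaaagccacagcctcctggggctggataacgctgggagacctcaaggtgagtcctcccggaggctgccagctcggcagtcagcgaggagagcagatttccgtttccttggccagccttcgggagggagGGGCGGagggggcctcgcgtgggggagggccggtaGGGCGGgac
Ass1: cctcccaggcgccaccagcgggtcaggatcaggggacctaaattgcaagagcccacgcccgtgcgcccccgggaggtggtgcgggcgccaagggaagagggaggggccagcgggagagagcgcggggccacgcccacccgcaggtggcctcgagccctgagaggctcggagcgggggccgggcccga
Otc: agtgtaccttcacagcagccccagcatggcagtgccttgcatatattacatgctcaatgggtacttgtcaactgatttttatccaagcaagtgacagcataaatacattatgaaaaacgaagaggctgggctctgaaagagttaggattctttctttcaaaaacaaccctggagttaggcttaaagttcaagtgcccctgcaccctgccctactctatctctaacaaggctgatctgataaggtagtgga
Slc25a13 had 1 match, the core of the cyclic AMP response element at position -13 from the start. Slc25a15 had GC boxes at -44 and -9, and the Ass1 and Otc windows held none of the letters searched. The matched windows not printed also held GC boxes, at -132 and -41 for Nags and at -148, -142 and -23 for Glud1. Over 27025 RefSeq promoters of this length, 17.9% held the core of the cyclic AMP response element and 1.62% the full element, 32.9% held the GC box, 16.2% the glucocorticoid motif, 13.0% the TATA box and 9.55% the C/EBP motif. The 6 matched windows also differed in base composition, from 43.6% G and C for Otc to 82.0% for Glud1, with 75.4% for Ass1.

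The high-protein and low-protein diets give the widest contrast in protein content in the design. Their carbohydrate labels differ too, the other way (70% against 112%), so protein and carbohydrate cannot be told apart here. Food was given freely, and the amounts eaten were not used. In the high-protein livers 8 of the 10 genes had the higher fitted level and 2 (Nags and Glud1) the lower, with a median log2 fold change of 0.56 over the 10 genes against -0.02 over all 17833 genes tested. No gene passed the threshold in this comparison (edgeR's quasi-likelihood test with Benjamini-Hochberg adjustment over all genes, 0 of 17833, 0%), and the smallest adjusted p among the 10 was 0.892. At an unadjusted p under 0.05, 4 of the 10 were higher with high protein (Cps1, Ass1, Slc25a13 and Gls2), where 2.34% of all genes tested were. In 6 of the 10 (these 4, Asl and Arg1) every high-protein liver lay above every low-protein liver, where 3.15% of all genes did. DESeq2 and limma-voom called none of the 10 either, with 4 and 7 of them higher at an unadjusted p under 0.05, where 2.89% and 5.56% of all genes were.

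Cps1, which commits ammonia to the cycle, was at 6341, 4681, 4899.8 and 6137 CPM in high-protein livers 1 to 4 and at 3596, 3434, 3807 and 3819 CPM in low-protein livers 1 to 4. The groups did not overlap, and the low-protein livers lay close together (3664 ± 185 against 5515 ± 845 CPM, SD, n = 4). The log2 fold change was 0.59 (SE 0.22, unadjusted p 0.018), a 1.51-fold difference. Nags, which makes the activator of Cps1, did not follow it. Its levels were 70.2, 50.6, 53.5 and 63.7 CPM with high protein and 61.1, 69.0, 65.2 and 56.9 CPM with low protein, in overlapping groups, with a log2 fold change of -0.08 and a 95% interval from -0.81 to 0.65. Nags overlaps the antisense gene Gm11586, and without a stated strand setting reads of the pair cannot be told apart.

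Otc, the mitochondrial enzyme that uses the product of Cps1, was at 450.1, 492, 489 and 417 CPM with high protein and at 545, 356, 405 and 398 CPM with low protein. Low-protein 1 was the highest liver of all 16 for Otc. The log2 fold change was 0.12, with a 95% interval from -0.43 to 0.66.

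Ass1, the cytosolic enzyme that joins citrulline and aspartate, was at 4295, 3490.5, 3910.4 and 5886 CPM with high protein and at 2579, 1910.3, 2263 and 2668 CPM with low protein. Each high-protein liver was above the highest low-protein liver, and the log2 fold change was 0.90 (SE 0.31, unadjusted p 0.011), or 1.87-fold. Asl, the next enzyme of the cycle, was at 930.1, 606, 585 and 1435 CPM against 426, 452, 403 and 559 CPM. Its groups did not overlap either, but high-protein 2 and 3 lay just above low-protein 4, and the fitted difference of 0.95 had an SE of 0.53 (unadjusted p 0.093). Arg1, which splits arginine into urea and ornithine, was at 1722, 1316, 1202 and 1979 CPM against 980.3, 1025, 1009 and 1038 CPM, with a log2 fold change of 0.62 (SE 0.33, unadjusted p 0.077). The low-protein livers agreed within a coefficient of variation of 2.47% for Arg1, while the high-protein livers had 23.2%.

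Of the carriers, Slc25a13, which supplies the aspartate used by Ass1, was at 206, 199, 213 and 234 CPM with high protein and at 178, 171, 164 and 174 CPM with low protein. The difference was small and the spread smaller, with a log2 fold change of 0.31 (SE 0.10, unadjusted p 0.0059), or 1.24-fold. Slc25a15, which exchanges ornithine for citrulline, was at 655, 474, 449 and 807 CPM against 397, 472, 389 and 391 CPM. Its groups overlapped through low-protein 2, and the log2 fold change was 0.53 (SE 0.32, unadjusted p 0.12).

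Gls2, the liver glutaminase, was at 688, 509.8, 411 and 741 CPM with high protein and at 367, 335, 328 and 336 CPM with low protein. Again the groups did not overlap, and the log2 fold change was 0.78 (SE 0.23, unadjusted p 0.0035), or 1.72-fold, the smallest p of the 10 genes in this contrast. Gls2 overlaps the protein-coding gene Spryd4 on the other strand, so its reads are uncertain in the same way as those of Nags. Glud1, which sets ammonia free from glutamate, was at 1114, 1129, 1279 and 1089 CPM against 1232, 1182, 1242 and 1264 CPM. Its log2 fold change was -0.09, with a 95% interval from -0.36 to 0.17.

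**Figure D1:**
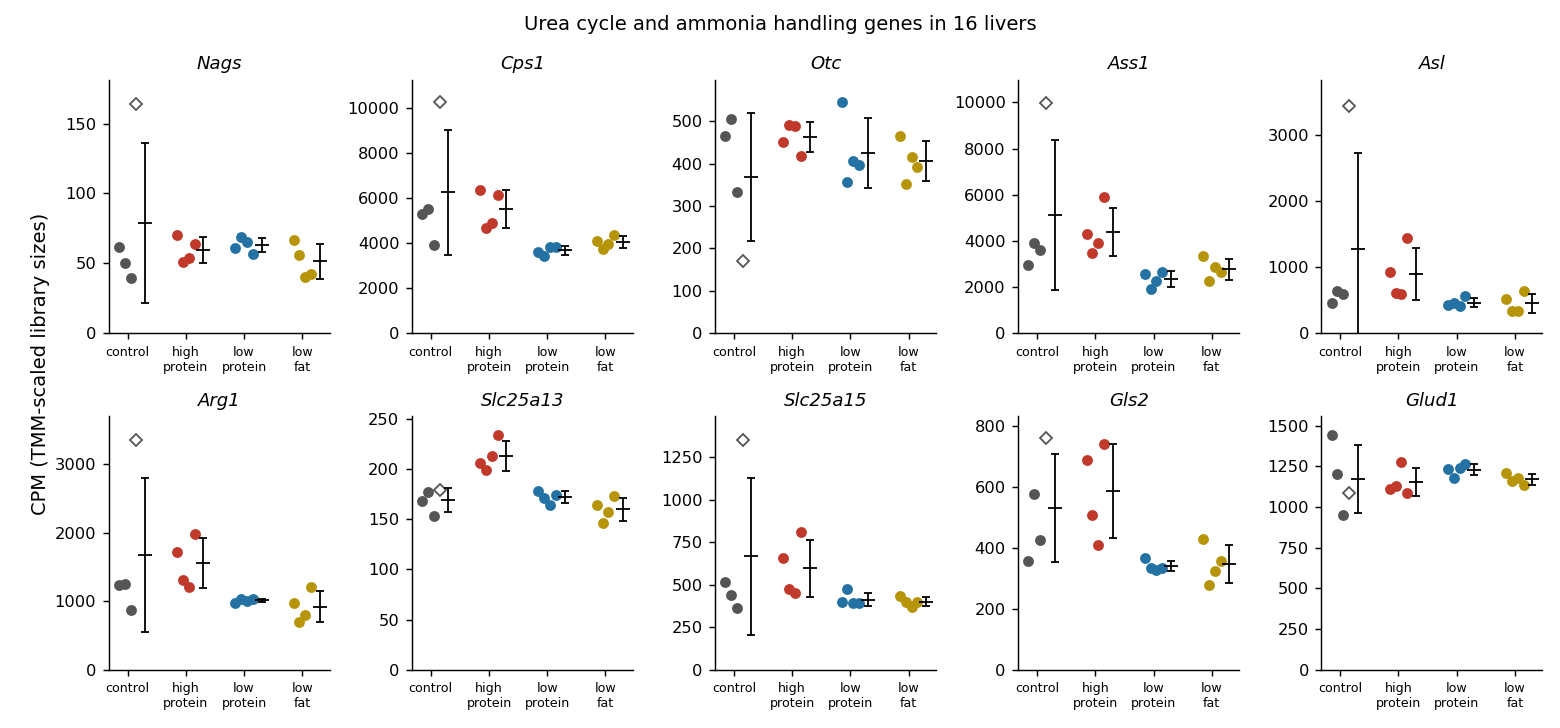
CPM of each of the 10 genes (vertical axes, linear and starting at 0) in the 4 livers of each diet (horizontal axis), with points for livers, bars for the mean ± SD of 4 livers (cut at 0 for Asl in control) and an open diamond for control 4. High-protein livers lie above all low-protein livers for Cps1, Ass1, Asl, Arg1, Slc25a13 and Gls2, and control 4 is the highest of 16 livers for 7 genes and the lowest for Otc.

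All 10 directions between high and low protein were the same without control 4, a liver of neither diet that enters this contrast only through the shared spread and the scaling. The standard errors were then smaller, and 7 of the 10 genes had an unadjusted p under 0.05 (the 4 above, Asl, Arg1 and Slc25a15), where 5.94% of all genes were higher at that level. Ass1 had a log2 fold change of 0.91 (SE 0.18) and the smallest adjusted p of the 10, 0.111, so none passed. With control 3, control 4 and high-protein 1 left out together, 7 of the 10 had an unadjusted p under 0.05, where 5.37% of all genes were higher at that level, and the smallest adjusted p was 0.165. Summed levels of 11 periportal markers, which mark the zone where most of these enzymes are made, were 8044 to 11935 CPM with high protein and 4736 to 6642 CPM with low protein, and those of 12 pericentral markers 8773 to 11275 and 7272 to 9073 CPM. Much of the periportal sum was Pck1, a gluconeogenic enzyme also induced by fasting and glucagon, at 4062 to 6239 CPM against 1308 to 3044 CPM. The other 10 periportal markers summed to 3860.0 to 5696 CPM with high protein and 3428 to 3988 CPM with low protein, in overlapping groups. None of the periportal or pericentral markers was at 0 in any library, and their part in the result was not tested. In whole liver, fewer cells of a type and less RNA per cell cannot be told apart. With log2 of the kidney marker sum as a covariate, the median over the 10 genes was 0.48. In that fit 3 genes had an unadjusted p under 0.05, where 2.28% of all genes were higher at that level. On the log2 scale high-protein 1, at 0.404 CPM against 81.3 CPM or more elsewhere, weighs heavily in that fit. With that liver left out and no covariate, the median was 0.50.

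The high-protein and low-fat diets differ in protein, carbohydrate and fat together. Here 9 of the 10 genes had the higher fitted level with high protein, all but Glud1, with a median log2 fold change of 0.51 (-0.02 over all genes tested). By edgeR 0 of 17833 genes passed (0%), and the smallest adjusted p of the 10 was 0.362. At an unadjusted p under 0.05, 4 genes were higher (Ass1, Arg1, Slc25a13 and Gls2), against 4.67% of all genes tested. Another set of 4 did not overlap (Cps1, Ass1, Slc25a13 and Slc25a15), against 4.23% of all genes. Without high-protein 1, high-protein 4, low-fat 2 or low-fat 3, each left out alone, and also with the kidney covariate, only 2 genes were left at an unadjusted p under 0.05, where 3.83%, 3.03%, 3.34%, 2.76% and 3.74% of all genes, in that order, were higher at that level.

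Slc25a13 had the smallest p of the 10 in this comparison. Its level in the low-fat livers was 165, 146, 157 and 173 CPM, all below the lowest high-protein liver (199), and the log2 fold change was 0.41 (SE 0.10, unadjusted p 6.6e-04, adjusted p 0.362 by edgeR). DESeq2 called Slc25a13 (adjusted p 0.0019) as 1 of 81 genes (0.454% of those tested), and over 8 other settings and 16 fits with a library left out none of the 10 was called. Cps1 in the low-fat livers was 4069, 3737, 3959.6 and 4369.6 CPM, and Ass1 was 3345, 2266, 2850.2 and 2626 CPM. Both lay below every high-protein liver. Gls2 was 429.6, 279, 324 and 359 CPM, and Arg1 was 974, 699, 805 and 1206 CPM. Low-fat 1 for Gls2 and low-fat 4 for Arg1 reached above the lowest high-protein liver. Without control 4, 7 genes had an unadjusted p under 0.05, where 10.2% of all genes were higher at that level, and the smallest adjusted p was 0.0598, again for Slc25a13. With the 3 libraries left out 7 genes were again at that level, against 8.22% of all genes, and the smallest adjusted p was 0.135.

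The low-fat and low-protein diets, which share the higher carbohydrate label, gave similar fitted levels of the 10 genes. The median log2 fold change of low fat over low protein was -0.06, none of the 10 had an unadjusted p under 0.05 (2.38% of all genes did, in either direction), and the smallest of their adjusted p-values was 1.0 (edgeR, 0% called). None was at that level without control 4 or without the 3 libraries either, where 5.06% and 8.91% of all genes were. The intervals were not all narrow. That of Slc25a13 ran from -0.31 to 0.11 and that of Glud1 from -0.34 to 0.19, while that of Asl ran from -1.18 to 1.11 on the log2 scale.

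**Figure D2:**
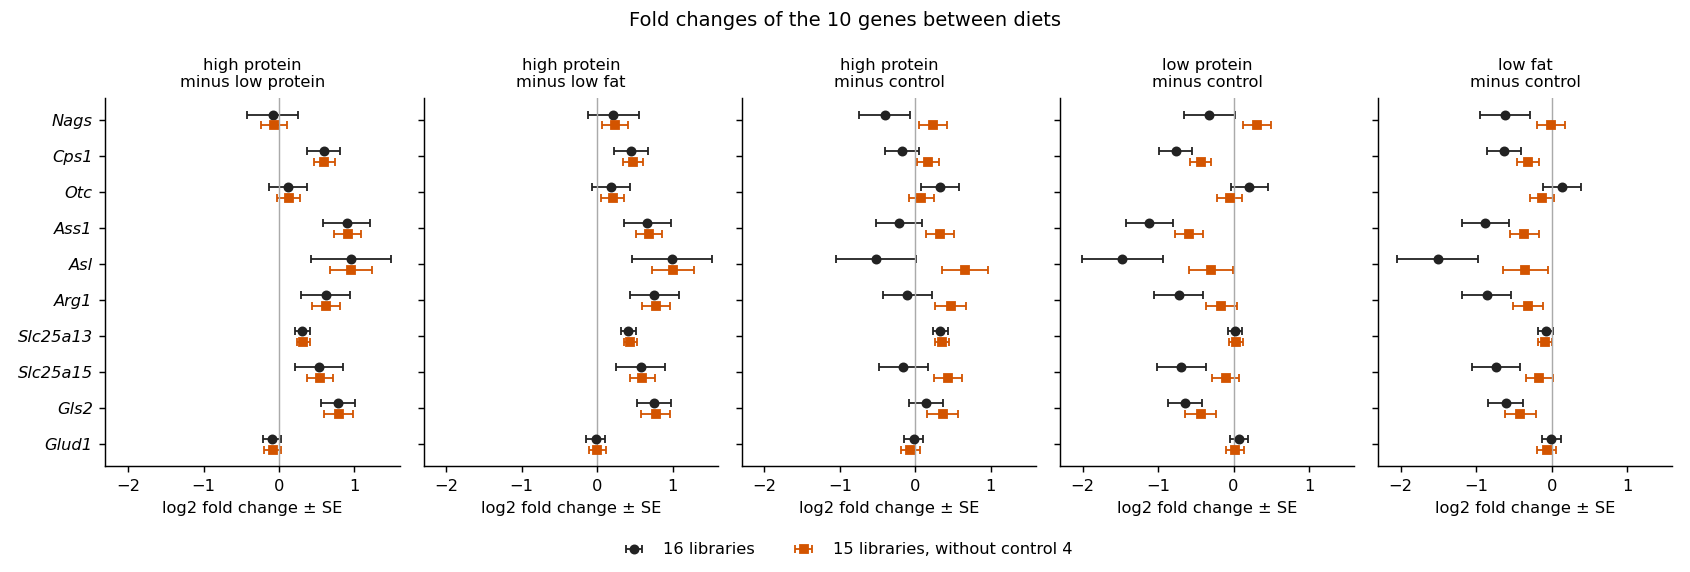
Log2 fold changes ± SE (horizontal axes) of the 10 genes (rows) in 5 comparisons of diets, from the fit of 16 libraries (black circles) and of 15 libraries without control 4 (orange squares). In the 2 panels without the control group the 2 fits lie on nearly the same values with shorter bars without control 4. In the 3 panels against control the points move to the right for Nags, Cps1, Ass1, Asl, Arg1, Slc25a15 and Gls2. Those of Otc move to the left there, and those of Slc25a13 and Glud1 move little.

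Comparisons with the control diet depended on control 4. In this liver Cps1 was at 10260 CPM, against 5271, 5500.0 and 3917 CPM in controls 1 to 3. Ass1 was at 9956 CPM against 2939.8, 3916 and 3616 CPM, and Asl at 3433 CPM against 448, 637 and 595 CPM. These are 2.10, 2.85 and 6.13 times the mean of the other 3 controls. Nags (164 CPM, 3.26 times), Slc25a15 (1347 CPM, 3.07 times), Arg1 (3346 CPM, 2.99 times) and Gls2 (762 CPM, 1.68 times) were also at their highest of all 16 livers there. Otc went the other way, at 169 CPM against 465, 506 and 334 CPM, its lowest value of the 16, while Slc25a13 (179 CPM, 1.08 times) and Glud1 (1088 CPM, 0.906 times) lay within the range of the other controls or close to it. The periportal marker sum of control 4 was 23664 CPM against 5767 to 6592 CPM in the other controls (Pck1 16339 against 2181 to 2729 CPM, the other 10 markers 7325 against 3039 to 3966 CPM), its pericentral sum 12987 against 6318 to 8175 CPM and its kidney sum 308 CPM. The part of these in the control comparisons was not tested.

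**Figure D3:**
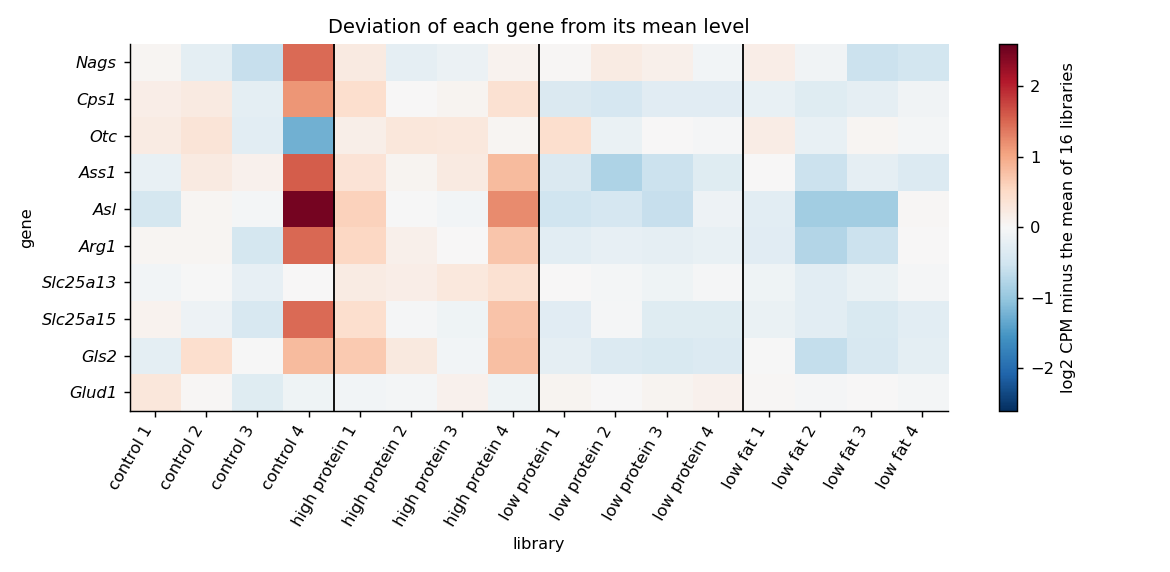
Deviation of log2 CPM of each gene (rows) from its mean over 16 libraries (columns, grouped by diet), with red above and blue below the mean on a scale shared by all genes. Control 4 shows the strongest red for Asl and a blue cell for Otc, high-protein 1 and 4 are red for Asl, Arg1, Slc25a15 and Gls2, and Glud1 is pale throughout.

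With high protein against control, 3 of the 10 genes were higher and 7 lower in the fit of all 16 libraries, with a median of -0.13 (all genes -0.06), and no gene passed (edgeR, 0%). Slc25a13 alone had an unadjusted p under 0.05. Its controls were at 168, 177, 153 and 179 CPM, all below the high-protein livers, with a log2 fold change of 0.33 (SE 0.10, unadjusted p 0.0038, adjusted p 0.762 by edgeR). Of all genes tested, 2.48% were higher with high protein at that p and 1.12% did not overlap in that direction. Without control 4 the median of the 10 genes turned to 0.34 with 9 genes higher, and 4 had an unadjusted p under 0.05 (Asl, Arg1, Slc25a13 and Slc25a15, against 4.68% of all genes). The fold change of Slc25a13 was then 0.35 (SE 0.09). Those of Asl and Arg1 went from -0.52 to 0.66 and from -0.11 to 0.47, so their direction against control is set by 1 liver. With the 3 libraries left out the median was 0.26 and Slc25a13 alone was higher at an unadjusted p under 0.05, against 8.35% of all genes.

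With low protein against control the median of the 10 was -0.66 (all genes -0.03), and 6 genes were lower at an unadjusted p under 0.05 (Cps1, Ass1, Asl, Arg1, Slc25a15 and Gls2), against 4.73% of all genes tested. No gene passed by edgeR (0%), the smallest adjusted p of the 10 being 0.682. Only Cps1 and Ass1 did not overlap between the diets, where 0.869% of all genes did so in this direction. For Cps1 control 3, at 3917 CPM, lay just above the highest low-protein liver, at 3819 CPM. Without control 4 the median was -0.13, and Cps1 (-0.44, SE 0.14, unadjusted p 0.0085) and Ass1 (-0.59, SE 0.19, unadjusted p 0.0071) were the 2 genes left at an unadjusted p under 0.05, where 1.63% of all genes were lower at that level. With the 3 libraries left out the median was -0.22, and the same 2 genes were at that level, against 2.17% of all genes.

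The low-fat livers gave a like picture against the same controls, which both comparisons share. The median was -0.62 (all genes -0.02), Cps1, Ass1, Asl, Arg1, Slc25a15 and Gls2 (6 of 10) were lower at an unadjusted p under 0.05, against 6.13% of all genes tested, and no gene passed (edgeR, 0%, smallest adjusted p of the 10 0.530). None of the 10 did without overlap, where 1.32% of all genes did. Without control 4 the median was -0.24 and Cps1 alone was at an unadjusted p under 0.05 (-0.31, SE 0.14, p 0.049, against 3.15% of all genes). With the 3 libraries left out the median was -0.27 and Cps1 was again alone at that level, against 2.7% of all genes. That fit, with only controls 1 and 2 left on the control diet, called 625 genes (3.4%) and none of the 10.

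Over the 4 diets together, 6 genes had an unadjusted p under 0.05, where 6.59% of all genes tested did. They were Slc25a13 (0.0030), Gls2 (0.0048), Ass1 (0.0073), Cps1 (0.010), Asl (0.027) and Arg1 (0.040). By edgeR none was called (0%), with adjusted p-values of 0.695 or more, while DESeq2 called Slc25a13 (adjusted p 0.0033) among 79 genes (0.443% of those tested). Without control 4, 7 of the 10 had an unadjusted p under 0.05, against 10.9% of all genes, and the smallest adjusted p was 0.174. With the 3 libraries left out together edgeR called 1 of the 10, Cps1, at an adjusted p of 0.0468, among 298 genes (1.62% of those tested), and Slc25a13 had an adjusted p of 0.0959. In the order of mean levels, control came first and high protein second for Cps1, Ass1, Asl, Arg1 and Slc25a15, and the 2 did not differ beyond their spread. That order rested on control 4. Without it the control means of these 5 genes were 4896, 3491, 560, 1118 and 438 CPM, each below the high-protein mean (5515, 4396, 889, 1554 and 596 CPM). High protein came first for Slc25a13, Gls2 and Otc. Low protein and low fat took the last 2 places for Cps1, Ass1, Asl, Arg1, Slc25a15 and Gls2. Between these diets Cps1 (370.0 CPM, higher with low fat), Glud1 (60.5 CPM, higher with low protein) and Slc25a13 (11.8 CPM, higher with low protein) had differences of means above the larger SD (263, 35.0 and 11.51 CPM), and the other 7 genes did not.

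Levels of several genes ran together from liver to liver. Against Cps1, log2 CPM over the 16 livers gave Pearson's r of 0.93 for Arg1, 0.92 for Ass1, 0.91 for Slc25a15, 0.90 for Asl and 0.85 for Gls2, with permutation p-values adjusted over the 9 genes of 4.5e-05 to 5.4e-05. Spearman's rho was 0.81, 0.90, 0.71, 0.78 and 0.78 in the same order, with adjusted permutation p-values of 1.8e-04 to 0.0052. Leaving out control 4 and high-protein 1, the livers farthest from the median of Cps1, r was 0.81, 0.82, 0.72, 0.71 and 0.78. As deviations from the diet means, pooled over diets, r was 0.90, 0.62, 0.80, 0.70 and 0.62 with control 4 left out after the means were taken. Control 4 still enters these values through the control mean, so they are no measure of the relation without that liver. The permutations moved all 16 livers freely across diets, control 4 included, so their p-values also take in differences between diets. The points share library preparation and depth.

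The other genes had smaller r with Cps1 over the 16 livers, though Nags did not as deviations from diet means that hold control 4. For Nags r was 0.67 (adjusted permutation p 0.029) and rho 0.17 (0.52), and r was -0.03 without the 2 farthest livers, so the relation over all livers rests on those. As deviations taken in the same way as above, r of Nags was 0.67. Control 4 still enters that value through the control mean, so it is no measure of the relation without that liver. For Slc25a13 r was 0.49 (0.069) and rho 0.60 (0.023), with r of 0.67 without those 2 livers and 0.61 as such deviations. Otc had r of -0.50 (0.071) and rho of 0.18 (0.52), with r of 0.41 without them and 0.40 without control 4 alone. As such deviations r of Otc was -0.14, but the control mean there holds control 4, so this value gives no direction within diets. Glud1 showed no relation over the 16 livers, with r of -0.17 (0.50) and rho of -0.31 (0.31), and r of 0.24 as such deviations.

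**Figure D4:**
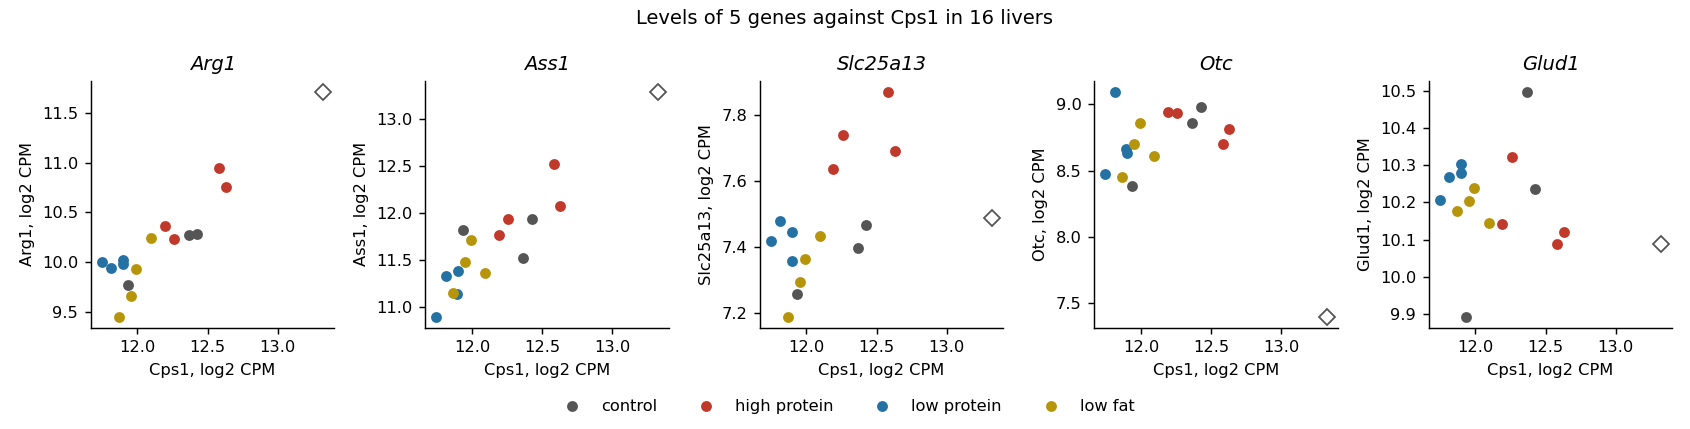
Log2 CPM of Arg1, Ass1, Slc25a13, Otc and Glud1 (vertical axes) against log2 CPM of Cps1 (horizontal axes) in 16 livers coloured by diet, with an open diamond for control 4. Arg1 and Ass1 climb with Cps1 over the 16 livers, control 4 is the top right point for both and the lowest point for Otc, and the high-protein livers form the upper band for Slc25a13.

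Among protein-coding genes outside the set, those whose log2 CPM most resembled the mean of the 10 genes over 16 livers were Ahcy (r 0.97), Gm4737 (0.97), Got1 (0.96) and Fh1 (0.96). Ahcy is S-adenosylhomocysteine hydrolase, and Gm4737 is a near-copy of it, so the reads of the pair are uncertain. Got1 is the cytosolic aspartate aminotransferase and Fh1 the fumarase that takes up the fumarate released by Asl. Without control 4 the 4 highest were Ahcy (0.94), Gm4737 (0.94), Sardh (0.93) and Gpt (0.93). Sardh, the sarcosine dehydrogenase, had only 0.44 over all 16 livers. These correlations describe genes picked as the highest of all and have no test.

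Genes that feed or drain the cycle were read from 4 companion lists. Between high and low protein no companion passed (edgeR). Of 10 tested genes for glutamine and ammonia, 5 were higher and 5 lower, and 3 were higher and 1 lower at an unadjusted p under 0.05. Of 12 for aspartate and bicarbonate supply 10 were higher, 1 at that p, and of 12 for ornithine and arginine 6 were higher and 6 lower, 3 and 1 at that p. Of 17 regulators 10 were higher, 2 at that p. Of all genes tested 2.34% were higher and 2.83% lower at that p. The list medians were 0.07, 0.31, -0.01 and 0.07. Without control 4 the counts at that p were 3 higher and 2 lower, 6 higher, 4 higher and 1 lower, and 5 higher, where 5.94% of all genes were higher and 5.11% lower, and with the 3 libraries left out 3 and 1, 4, 3 and 1, and 5 (5.37% and 4.93%). No companion was called in these fits between high and low protein either.

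Glul, the glutamine synthetase of pericentral hepatocytes that takes up ammonia escaping the cycle, had no such difference. It was at 499.6, 587, 653 and 694 CPM with high protein and at 583, 664, 638 and 590.4 CPM with low protein, with a log2 fold change of -0.02 (SE 0.17). Slc1a2, a glutamate transporter of the same cells, was at 136, 116, 144 and 207 CPM against 69.2, 86.5, 78.2 and 87.0 CPM. Its groups did not overlap and its log2 fold change was 0.91 (SE 0.19, unadjusted p 2.8e-04, adjusted p 0.787 by edgeR). Low-fat livers, at 66.5, 77.9, 65.6 and 93.3 CPM, were also below every high-protein liver. Slc38a2, a transporter of glutamine and other neutral amino acids, had 337, 309, 221 and 412 CPM against 132, 175, 161 and 119 CPM, with a log2 fold change of 1.12 (SE 0.45, unadjusted p 0.025). Aspg, an asparaginase, had its lower mean with high protein, 179 ± 15.9 against 236 ± 39.3 CPM (SD, n = 4).

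Ornithine and arginine genes gave the next smallest p-values. Oat, the ornithine aminotransferase that draws ornithine out of the cycle, was at 979, 760.1, 1174 and 1422 CPM with high protein and at 672, 528, 459.8 and 475 CPM with low protein, with a log2 fold change of 1.02 (SE 0.25, unadjusted p 8.5e-04). Slc7a2, the cationic amino acid transporter through which hepatocytes take up arginine and ornithine, was at 1506, 1079, 792 and 1424 CPM against 494, 608, 508 and 649 CPM, with a log2 fold change of 1.09 (SE 0.29, unadjusted p 0.0016). Neither gene overlapped between the 2 diets. Both also lay higher with high protein than with low fat, by 0.87 (SE 0.25) and 1.33 (SE 0.29), again with no overlap. Without control 4, edgeR called Slc7a2 (1.35, SE 0.20, adjusted p 0.0322) and Slc1a2 (1.01, SE 0.16, adjusted p 0.0394) between high protein and low fat, among 19 genes (0.105% of those tested), while with the 3 libraries left out both had an adjusted p of 0.104. Aldh18a1, which makes the ornithine precursor pyrroline carboxylate, was hardly expressed, at 1.07 ± 0.179 CPM with high protein and 1.68 ± 0.274 CPM with low protein (SD, n = 4). Its highest high-protein liver (1.30 CPM) lay just below its lowest low-protein liver (1.31 CPM).

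For aspartate supply, Gpt, the cytosolic alanine aminotransferase, was at 649, 460.5, 476 and 702 CPM with high protein and at 360.4, 413, 406 and 416 CPM with low protein (log2 fold change 0.52, SE 0.19, unadjusted p 0.017). The high-protein livers were all higher. Fh1 was at 322 ± 121 against 182 ± 18.0 CPM and Mdh2, the mitochondrial malate dehydrogenase, at 242 ± 65.7 against 189 ± 17.7 CPM (SD, n = 4), with unadjusted p-values of 0.052 and 0.060 in the same test. Of the regulators, Ppargc1a, a coactivator of fasting genes, was at 59.4, 30.7, 24.2 and 56.1 CPM with high protein and at 11.7, 17.6, 9.08 and 13.1 CPM with low protein, without overlap (log2 fold change 1.73, SE 0.60, unadjusted p 0.011). Onecut1, a liver transcription factor, was at 38.2, 55.5, 12.0 and 11.8 CPM against 4.53, 17.3, 7.86 and 10.2 CPM, in overlapping groups (1.56, SE 0.57, unadjusted p 0.015). Foxo1, an insulin-regulated factor of gluconeogenesis, was at 60.1 ± 16.2 against 36.6 ± 6.27 CPM (SD, n = 4).

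**Figure D5:**
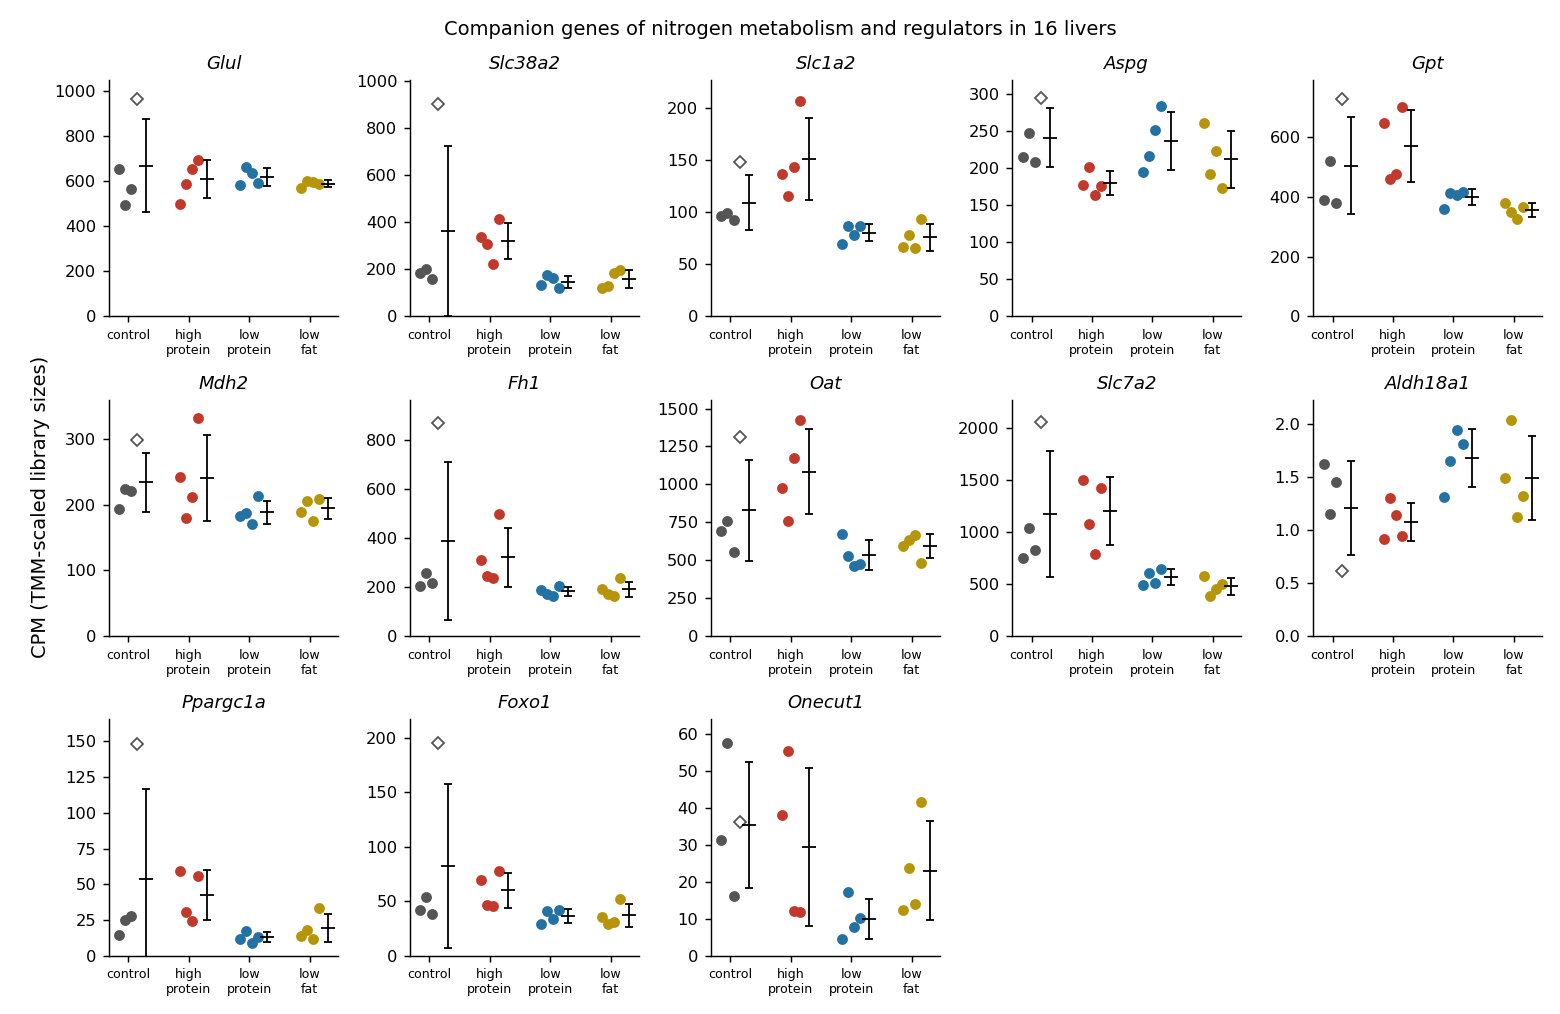
CPM of 13 companion genes (vertical axes, linear and starting at 0) in the 4 livers of each diet, with points for livers, bars for the mean ± SD of 4 livers (cut at 0 for Ppargc1a and Slc38a2 in control where they reach below it) and an open diamond for control 4. Slc1a2, Oat, Slc7a2, Slc38a2, Gpt, Fh1, Ppargc1a and Foxo1 have all high-protein livers above all low-protein livers, and Aldh18a1 has them all below. All but Glul were picked by small p in this contrast, which favours such separation, and 3.15% of all genes tested lay wholly above. Glul lies between 492 and 694 CPM in all livers but control 4 (967 CPM).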

How the data were processed

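RNA sequencing measured transcripts in 16 livers, 4 on each of 4 diets, and groups came from the sample titles. The authors deposited 1 table of read counts per gene, with positions and exon lengths. The submitters' processing notes name build GRCm38.p6 and, with no role or order, STAR 2.7.0f, Subread 1.6.4, featureCounts, Trimmomatic 0.39 and edgeR 3.32.1. Settings, the strand setting of the counting among them, are not given in the sources used. The kit was directional, per the labels' protocols.

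The table held 54752 genes, of which 53861 matched a symbol in GENCODE M21. Library totals ran from 35243594 to 112789127 counts. Replicates of a diet differed by more than sampling noise (chi-square per degree of freedom at least 40.5), so none was counted as a duplicate. CPM values here are counts scaled by TMM-adjusted library sizes, and log2 CPM used a prior count of 2. Genes passing filterByExpr (17833, the 10 members included) were fitted in edgeR 4.0.16 (R 4.3.3) with the quasi-likelihood model, 4 diet means and 12 residual degrees of freedom. All 6 pairs of diets, and the 4 diets together, were tested, two-sided, with Benjamini-Hochberg adjustment over all genes tested at 0.05. Intervals of fold changes are 95% intervals from the SE and the 12 residual degrees of freedom. Correlations used two-sided permutation tests. The steps were tested on simulated data.

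The members, the companion lists and the marker lists were chosen with earlier results of these data known. Companions named are the 3 of each list with the smallest p between high and low protein, and Glul, the glutamine synthetase. Genes named for likeness are the 4 protein-coding genes with the highest correlation with the mean of the members, over 16 libraries and over the 15 without control 4. A few listed genes were not analysed here. The alternatives were RLE factors, library totals alone, DESeq2 1.42.0, limma-voom (limma 3.58.1) with quality weights per sample, all genes without a filter, the compared diets alone, a replicate block, a kidney marker covariate and leaving out libraries. Leaving out 3 libraries together, library totals alone, the companions without libraries and the periportal sum without Pck1 were chosen after seeing the data. Animals carry the numbers 1 to 4 within a diet, with no litter or cage given, and a p-value here therefore measures only the spread between these livers. Of 24 same-numbered pairs, 8 had a correlation of deviations from the diet means over 0.1 (range -0.20 to 0.30), so the numbers were not taken to pair the animals. Promoter windows came from RefSeq (GRCm38.p6).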

Additional observations from a re-analysis of the deposited data

Results flagged for a closer look

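In groups of 4 livers, a single liver was counted as standing apart when the gap between it and its nearest neighbour took up most of the range of its group (Dixon's test at 0.05). Of 40 groups tested, 10 genes on 4 diets, 5 met this, and chance gives about 1 in 20 groups. In control 4 these were Ass1 at 9956 CPM, Asl at 3433 CPM, Arg1 at 3346 CPM and Slc25a15 at 1347 CPM, each the highest of its diet, so the 4 results come from the same liver. The fifth was Slc25a15 at 472 CPM in low-protein 2, against 389 to 397 CPM in the other low-protein livers. That liver is also what made the high-protein and low-protein groups of Slc25a15 overlap.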

How the results depend on the processing

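Between high and low protein, all 10 genes kept their direction under every alternative run, and none was called under any of them. With the replicate block, the medians of the 10 genes were 0.51 (high against low protein), 0.48 (high protein against low fat), -0.04 (high protein against control), -0.54 (low protein against control), -0.58 (low fat against control) and -0.07 (low fat against low protein). The replicate block changed no call, and with it Arg1 between high protein and control was 0.010 and Glud1 between low fat and control 0.00216, each with a changed sign.

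DESeq2 called 1 of the 10 between high protein and low fat and 1 over all diets, and leaving out 3 libraries together (control 3, control 4 and high-protein 1, chosen after seeing the data) called 1 over all diets. Against 0 genes of all tested by edgeR, DESeq2 called 25 between high and low protein, 81 between high protein and low fat, 1, 10 and 4 for high protein, low protein and low fat against control, 0 between low fat and low protein and 79 over all diets. The compared diets alone gave 16 genes and limma-voom 1 between high protein and low fat. Leaving out the 3 libraries gave 625 genes between low fat and control and 298 over all diets, leaving out control 3 alone 109 between low fat and control, control 4 alone 19 between high protein and low fat, and high-protein 3 alone 2 between high and low protein, 1 between high protein and low fat and 1 over all diets. Fits without 1 library also pass a different number of genes to the test, and other causes of these differences were not tested.

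Signs against control changed as follows (log2 fold changes). With limma-voom and quality weights, high protein gave 0.0840 for Nags, 0.027 for Cps1, 0.25 for Ass1, 0.47 for Asl, 0.27 for Arg1 and 0.24 for Slc25a15, low protein gave 0.20 for Nags, -0.12 for Otc and -0.0431 for Glud1, and low fat gave -0.15 for Otc. That fit gave control 4 the lowest weight (0.096). With the 3 libraries left out, high protein gave 0.00222 for Nags, -0.0595 for Otc, 0.37 for Ass1, 0.69 for Asl, 0.27 for Arg1 and 0.28 for Slc25a15, low protein gave 0.17 for Nags, -0.19 for Otc, -0.00602 for Slc25a13 and -0.11 for Glud1, and low fat gave -0.26 for Otc. Slc25a13 between low protein and control was -0.00232 with RLE factors and -0.00214 with DESeq2. Between low fat and control, Glud1 was 0.024 with the kidney covariate, and with library totals alone (chosen after seeing the data) Glud1 was 0.081 and Slc25a13 0.00500. The r of Nags with Cps1 was -0.0283 without the 2 livers farthest from the median of Cps1.

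Leaving out each library in turn, the median of the 10 between low protein and control ran from -0.79 to -0.13 (without control 4). Between high protein and control the ranges were -0.58 to 0.23 for Nags, -0.31 to 0.16 for Cps1, -0.39 to 0.32 for Ass1, -0.83 to 0.66 for Asl, -0.27 to 0.47 for Arg1 and -0.32 to 0.44 for Slc25a15, each highest without control 4, and -0.0922 to 0.0996 for Glud1. Between low protein and control they were -0.50 to 0.30 for Nags, -0.0502 to 0.40 for Otc, -0.0111 to 0.0432 for Slc25a13 and -0.00942 to 0.18 for Glud1. Between low fat and control they were -0.13 to 0.33 for Otc and -0.0735 to 0.0988 for Glud1, and between high protein and low fat -0.0559 to 0.0308 for Glud1. With 4 livers per diet, the SE of a fold change ran from 0.10 for Slc25a13 to 0.53 for Asl, which limits what could be detected. Fits at lower depth were not run.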

Other observations

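Control 4 stood apart in companion genes too, and the 3 tested companions highest and the 2 lowest there relative to the other 3 controls are given as values, chosen after those values were seen. Got1, the cytosolic aspartate aminotransferase, was at 7402 CPM in control 4 against 333 to 573 CPM in the other 3 controls, 17.2 times their mean. With high protein Got1 ran from 384 to 1708 CPM. Slc25a22, a mitochondrial glutamate carrier, was at 1176 CPM against 157 to 171 CPM, and Ppargc1a was at 148 CPM against 14.5 to 27.9 CPM. Gamt, which makes creatine, was at 20.4 CPM against 93.8 to 123 CPM, 0.187 times their mean. Nit2, an omega-amidase that acts on a product of glutamine, was at 33.4 CPM against 118 to 154 CPM, 0.244 times their mean.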
